A study of Mus musculus with 9 samples.

Results

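The E2F and retinoblastoma families are the transcription factors and the inhibitors that decide whether a cell passes from G1 into S phase, and 10 of their genes were followed here: E2f1, E2f2, E2f3, E2f4, E2f7, E2f8, the partner gene Tfdp1 and the pocket protein genes Rb1, Rbl1 and Rbl2. They were taken by name, with earlier results of these data known, and no threshold on their values was applied. All 10 were among the 24060 genes of the deposited table, and 9 of them were among the 11330 genes whose level exceeded a TPM of 1 in at least 1 library and that were therefore tested. E2f7 stayed under that level in every library and was not tested.

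The RNA came from the CD8 T cells of 3 lines of transnuclear mice, R7-I, R7-II and R7-III, which were made by transfer of the nucleus of a single CD8 T cell specific for ROP7, a protein of the parasite Toxoplasma gondii. Each line therefore carries the T cell receptor of 1 cell, the lines are Rag2-proficient on the BALB/c background, and a difference between lines is a difference between 3 single clones. All 3 lines were treated alike, and no unstimulated group is used here. Splenocytes were cultured overnight with ROP7 peptide at 10 µM and mouse IL-2 at 10 ng/ml, and the cells that carried CD3 and CD8 and bound the H-2Ld tetramer with the ROP7 peptide were sorted. The receptors were described as binding this antigen in the order R7-I, R7-III, R7-II, from strongest to weakest. That order was clear with purified proteins, while a measurement on cells in the paper gave similar affinities for R7-I and R7-III. The same measurement gave R7-I the higher adhesion frequency. The paper also reported calcium release and ERK phosphorylation in the order found with purified proteins. The comparisons ask how the clones differed after the same peptide stimulus. Differences already present before the peptide cannot be told apart from those that followed it, nor affinity from other traits of a clone. Each line gave 3 libraries, named as biological replicates; whether they came from separate mice was not given in the sources used here, so the p-values measure the spread between these libraries.

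As background, E2F proteins bind the promoters of genes for DNA replication and the cell cycle, most of them as a dimer with a DP protein such as the product of Tfdp1. The pocket proteins Rb, p107 (Rbl1) and p130 (Rbl2) bind E2F proteins and repress their targets until cyclin-dependent kinases phosphorylate them, and p130 with E2F4 and the MuvB core forms the DREAM complex of resting cells. E2F1, E2F2 and E2F3 are mainly activators, E2F4 mainly acts with the pocket proteins, and E2F7 and E2F8 are repressors that bind DNA without a DP partner. Resting T cells are known for high p130, and on stimulation they raise E2F activity as they enter the cycle.

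Levels are TPM, a measure that is corrected for transcript length and scaled to the same total in each library. Each library listed 13738 to 14434 genes at a TPM other than 0, and Pearson correlations across genes of log2(TPM + 1) lay between 0.992 and 0.997 within a clone. The summed TPM of 6 CD8 T cell markers (Cd8a, Cd8b1, Cd3d, Cd3e, Cd3g and Thy1) was 1593 to 1674 in R7-I, 2309 to 2427 in R7-II and 1702 to 1790 in R7-III, so the labelled cell type was present in every library. Genes of other cells were higher in R7-II. The summed TPM of 7 B cell markers was 32.1 to 67.4 in R7-II against 7.73 to 14.4 in R7-I and 4.77 to 6.92 in R7-III, and all 6 of these that were tested were called higher in R7-II in both comparisons. Of all genes tested, 40.6% were called higher in R7-II against R7-I and 35.6% against R7-III. The 4 MHC class II genes summed to 100.4 to 167 in R7-II, 27.5 to 43.8 in R7-I and 19.5 to 22.6 in R7-III, and the 6 myeloid markers to 19.0 to 74.1, 0.63 to 2.08 and 2.25 to 3.91, with Cd14 at 0 in all R7-I libraries. The 3 CD4 T cell markers summed to at most 2.94, the 3 NK cell markers to at most 0.5, and the 6 erythroid markers to 22.1 to 73.3 in R7-I, 1.30 to 15.1 in R7-II and 8.99 to 25.5 in R7-III, where R7-I and R7-III overlapped. The part of these cells in the differences below was not tested. In bulk RNA, fewer cells with a transcript and less of it per cell cannot be told apart.

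On the mouse genome build mm10, E2f1 lies at chr2:154559400-154569892, E2f3 at chr13:29906575-29986064, E2f4 at chr8:105297663-105305370, Tfdp1 at chr8:13338725-13378448, Rb1 at chr14:73192858-73325951, Rbl1 at chr2:157145893-157204534 and Rbl2 at chr8:91070057-91123844. Some exonic bases are shared with a neighbouring gene, 16.8% for Rbl2 (with Aktip and Gm45464), 15.7% for E2f8 (with Gm2788) and 2.26% for Rb1 (with Rcbtb2), and reads of a library that does not mark strand cannot be told apart there. Aktip itself had a mean TPM of 12.8 in R7-I, 17.4 in R7-II and 11.5 in R7-III.

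Since several E2F and pocket protein genes are themselves known E2F targets, the bases just before their annotated starts are shown for 5 members, from RefSeq on GRCm38.p6, 5′ to 3′ on the gene's strand. Capitals mark a match on either strand to 1 of 4 forms of the E2F site. These were TTCCCGC, which E2f3 and E2f7 held, the form TTGGCGC, which E2f7 also held, the form TTCGCGC, which Tfdp1 and Rbl1 held, and lastly TTGCCGC, which these windows did not hold; no matches overlapped. The windows are chr13:29986065-29986313 (minus strand) for E2f3, chr10:110745189-110745438 (plus) for E2f7, chr8:13338501-13338724 (plus) for Tfdp1, chr2:157204535-157204784 (minus) for Rbl1 and chr8:91069807-91070056 (plus) for Rbl2.
E2f3: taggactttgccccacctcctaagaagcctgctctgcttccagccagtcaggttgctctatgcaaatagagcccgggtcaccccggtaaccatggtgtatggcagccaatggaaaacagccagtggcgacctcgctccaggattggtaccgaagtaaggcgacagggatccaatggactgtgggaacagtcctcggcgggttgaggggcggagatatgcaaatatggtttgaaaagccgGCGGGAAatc
E2f7: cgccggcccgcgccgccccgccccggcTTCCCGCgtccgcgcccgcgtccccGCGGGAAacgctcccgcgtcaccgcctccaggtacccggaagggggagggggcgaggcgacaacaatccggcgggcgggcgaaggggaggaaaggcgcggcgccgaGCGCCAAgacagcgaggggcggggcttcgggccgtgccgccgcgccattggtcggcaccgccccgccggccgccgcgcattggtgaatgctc
Tfdp1: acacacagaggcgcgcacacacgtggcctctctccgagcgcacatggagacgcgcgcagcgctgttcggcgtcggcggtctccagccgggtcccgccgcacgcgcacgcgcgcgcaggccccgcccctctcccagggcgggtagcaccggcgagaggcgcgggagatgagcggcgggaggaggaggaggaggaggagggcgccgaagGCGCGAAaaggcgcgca
Rbl1: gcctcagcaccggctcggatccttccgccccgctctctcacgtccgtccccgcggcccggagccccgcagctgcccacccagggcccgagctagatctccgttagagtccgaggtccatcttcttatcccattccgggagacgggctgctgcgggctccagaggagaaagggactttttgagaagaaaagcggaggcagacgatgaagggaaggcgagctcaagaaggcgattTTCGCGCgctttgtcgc
Rbl2: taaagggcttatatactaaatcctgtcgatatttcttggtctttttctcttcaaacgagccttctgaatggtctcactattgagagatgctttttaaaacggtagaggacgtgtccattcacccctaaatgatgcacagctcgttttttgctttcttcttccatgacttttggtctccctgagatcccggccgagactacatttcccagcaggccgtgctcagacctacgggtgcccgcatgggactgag

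In these windows E2f7 held 3 matches, and E2f3, Tfdp1 and Rbl1 held 1 each, at 10 to 4 bases before the gene's annotated start in E2f3 and at 17 to 11 in both Tfdp1 and Rbl1. The window of Rbl2 and that of E2f2, which is not shown, held none. Among all 22754 windows of this kind, which were 200 to 250 bases long, 7.12% held at least 1 match, and among the 6150 of genes tested here 14.5% did. A match is a description of letters and not of a bound site, and the absence of one says nothing about binding. Windows for E2f4 and Rb1 were not used here, and those of E2f1 and E2f8 began inside the annotated gene and are not shown.

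The first question was how R7-II, the clone of lowest affinity, differed in these genes from the other clones. Against R7-I, 7 of the 9 members tested were called with limma at an adjusted p below 0.01. Rb1, Rbl2 and E2f2 were higher in R7-II, and E2f1, E2f3, E2f4 and Tfdp1 were lower. Of all genes tested, 40.6% were called higher and 15.5% lower in this comparison, so a call by itself was common. Against R7-III, 7 of 9 were also called, with only Rbl2 higher, where 35.6% of all genes were called higher, and E2f1, E2f2, E2f3, E2f4, E2f8 and Tfdp1 lower, where 18.0% were. The median log2 fold change of the members was -0.12 relative to R7-I and -0.54 relative to R7-III, where all genes tested had medians of 0.17 and 0.12. After scaling each library by a median-of-ratios factor, 3 members were higher and 5 lower against R7-I, and 1 higher and 6 lower against R7-III, while the share of higher genes among all called fell from 72.4% to 47.7% and from 66.4% to 47.9%. Of the 11330 genes tested, 2949 were then called higher and 3230 lower against R7-I, and 2896 and 3150 against R7-III. Both comparisons share the R7-II libraries.

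**Figure D1:**
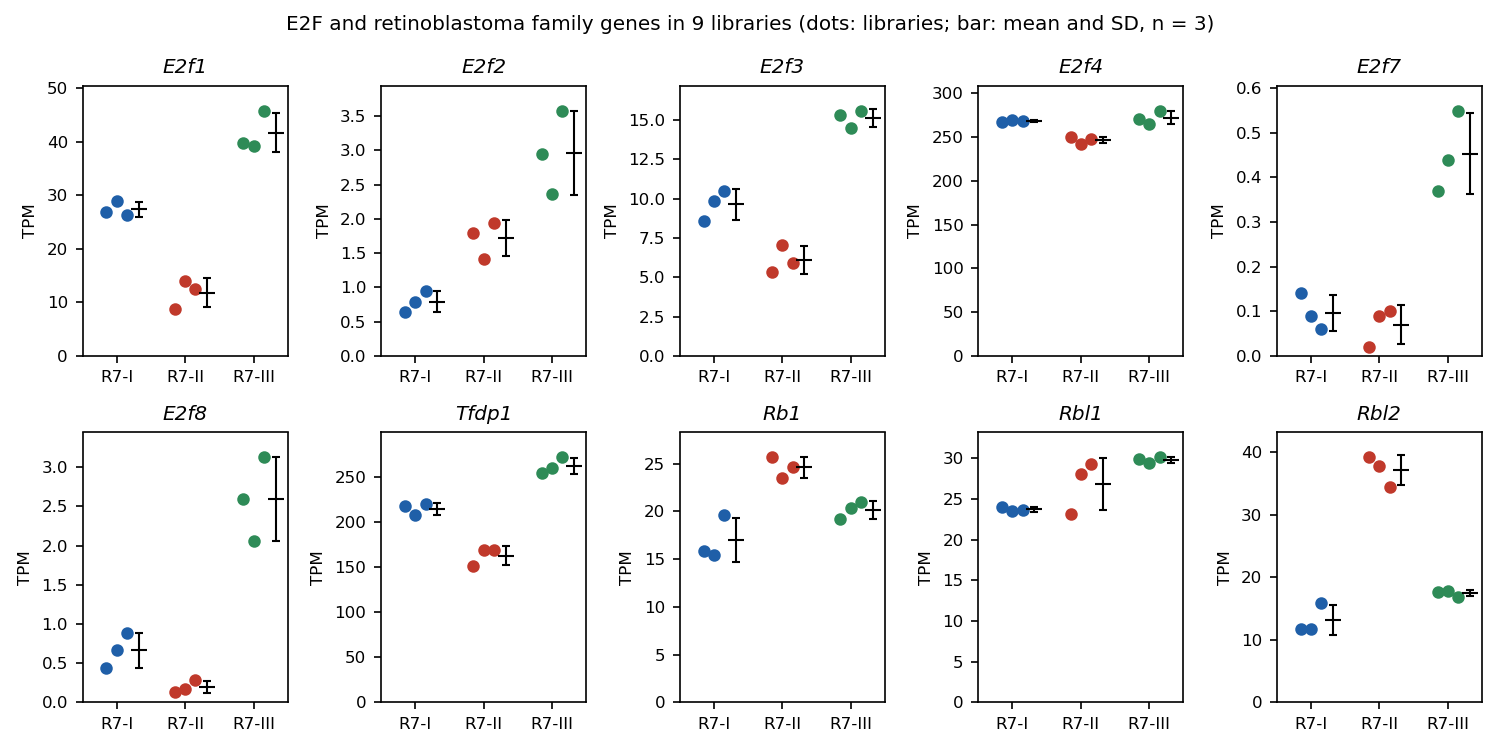
TPM (vertical axes, each from 0) of the 10 family genes in the 3 libraries of R7-I (blue), R7-II (red) and R7-III (green); dots are libraries and bars the mean and SD. E2f1, E2f3 and Tfdp1 were lowest in R7-II and highest in R7-III, while Rbl2 was at 34.4 to 39.2 in R7-II and below 18 elsewhere.

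E2f1, the activator whose overexpression can drive cells into S phase, was at 26.8, 29.0 and 26.3 TPM in R7-I, at 8.80, 14.1 and 12.6 in R7-II and at 39.8, 39.3 and 45.8 in R7-III. The 3 clones did not overlap, and every R7-II library lay below every other library. The mean was 27.4 ± 1.40 (SD, n = 3) in R7-I, 11.8 ± 2.71 in R7-II and 41.6 ± 3.63 in R7-III. E2f1 fell in R7-II by 1.17 on the log2(TPM + 1) scale against R7-I (SE 0.13, limma adjusted p = 2.17e-05) and by 1.75 against R7-III (adjusted p = 1.28e-06).

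E2f3, the second activator of this group with a sizeable level, had the same order. Its TPM was 8.58, 9.84 and 10.5 in R7-I, 5.35, 7.05 and 5.90 in R7-II and 15.3, 14.5 and 15.6 in R7-III, with no overlap between clones. The log2 fold change was -0.59 against R7-I (SE 0.10, adjusted p = 3.16e-04) and -1.19 against R7-III (adjusted p = 2.22e-06).

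E2f2, the third activator, was low throughout and had another order. Its TPM was 0.64, 0.78 and 0.95 in R7-I, 1.80, 1.42 and 1.94 in R7-II and 2.94, 2.36 and 3.58 in R7-III. Here R7-I and not R7-II was lowest, and the clones did not overlap. The difference of R7-II was 0.60 from R7-I (SE 0.14, adjusted p = 0.00283) and -0.54 from R7-III (adjusted p = 0.00585). Both calls were fragile. That against R7-I was lost without R7-I replicate 1 (adjusted p = 0.0136), R7-II replicate 1 (0.0105) or R7-II replicate 3 (0.0113), and that against R7-III without R7-II replicate 1 or 2 or without R7-III replicate 1 or 3.

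The summed TPM of the 3 activators was 37.8 ± 1.78 in R7-I, 19.6 ± 3.36 in R7-II and 59.7 ± 4.68 in R7-III. E2f1 made up most of it in each clone, and E2f2 least.

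E2f4, which carries no activating role of this kind and occupies promoters together with p130 in resting cells, was by far the most abundant E2F transcript. Its TPM was 266.8, 269 and 268 in R7-I, 250.3, 243 and 247 in R7-II and 271, 266 and 280.4 in R7-III. R7-II lay below all other libraries, by a small margin, and R7-I and R7-III overlapped. The log2 fold change was -0.12 against R7-I (SE 0.03, adjusted p = 0.00282) and -0.14 against R7-III (adjusted p = 0.00100), or -0.29 and -0.27 with median-of-ratios scaling. The call against R7-I was lost without R7-I replicate 2 (adjusted p = 0.0116), with quantile normalization (0.0393) and without the trend (0.0157). E2f4 supplied 74.2% to 74.7% of the summed TPM of E2f1 to E2f8 in R7-I, 76.0% to 77.7% in R7-II and 69.3% to 71.0% in R7-III. The ratio of E2f1 to E2f4 within a library was 0.098 to 0.11 in R7-I, 0.035 to 0.058 in R7-II and 0.15 to 0.16 in R7-III, so the balance between these transcripts did not overlap between clones and does not depend on how libraries were scaled.

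E2f7 and E2f8, the repressors that are E2F targets themselves, were the least abundant members. E2f8 was at 0.44, 0.67 and 0.89 TPM in R7-I, at 0.13, 0.17 and 0.28 in R7-II and at 2.60, 2.06 and 3.13 in R7-III. The clones did not overlap, and R7-III stood far above the other clones. E2f8 fell in R7-II by 1.58 against R7-III (SE 0.15, adjusted p = 6.85e-06). Against R7-I the difference was -0.48 (95% interval -0.81 to -0.14, adjusted p = 0.0160), which did not pass the threshold, and it passed with median-of-ratios scaling (-0.52, adjusted p = 0.00978). Such a low gene depends on the pseudocount, since a pseudocount of 0.1 in place of 1 gave -1.37 against R7-I.

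E2f7 was at 0.14, 0.09 and 0.06 TPM in R7-I, at 0.02, 0.09 and 0.10 in R7-II and at 0.37, 0.44 and 0.55 in R7-III. R7-I and R7-II overlapped, and all R7-III libraries were above them. Where no gene was filtered out, R7-II differed by -0.04 from R7-I (adjusted p = 0.616) and by -0.44 from R7-III (adjusted p = 1.80e-04). At so low a level few reads stand behind a value, and how many cannot be read from TPM.

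Tfdp1, the DP partner that E2F1 to E2F6 need to bind DNA tightly, was at 218, 207 and 219 TPM in R7-I, at 151, 169 and 168 in R7-II and at 255, 260.1 and 272 in R7-III. The clones did not overlap. Tfdp1 fell in R7-II by 0.40 against R7-I (SE 0.05, adjusted p = 2.47e-05) and by 0.69 against R7-III (adjusted p = 5.64e-07).

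Tfdp2, the other DP gene and not a member of the list, went the other way. Its TPM was 1.85, 2.16 and 2.54 in R7-I, 5.36, 4.66 and 5.93 in R7-II and 3.82, 3.71 and 3.94 in R7-III. In R7-II it changed by 0.99 relative to R7-I (adjusted p = 1.61e-05) and 0.38 against R7-III (adjusted p = 0.00865; 0.28 and 0.0312 with median-of-ratios scaling). The ratio of Tfdp1 to Tfdp2 was 86.3 to 118 in R7-I, 28.2 to 36.2 in R7-II and 66.6 to 70.1 in R7-III, so Tfdp1 remained the far more abundant DP transcript in every library.

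E2f5 and E2f6, the remaining family genes, did not pass the threshold in any comparison. E2f5 had a mean TPM of 21.9 ± 2.04 in R7-I, 22.9 ± 0.788 in R7-II and 20.2 ± 1.40 in R7-III. E2f6 had 31.3 ± 0.502, 31.8 ± 0.378 and 31.7 ± 2.05 in the same order. Their differences between R7-II and R7-I, 0.06 and 0.02, turned to -0.10 and -0.15 with median-of-ratios scaling, which did not pass either.

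**Figure D2:**
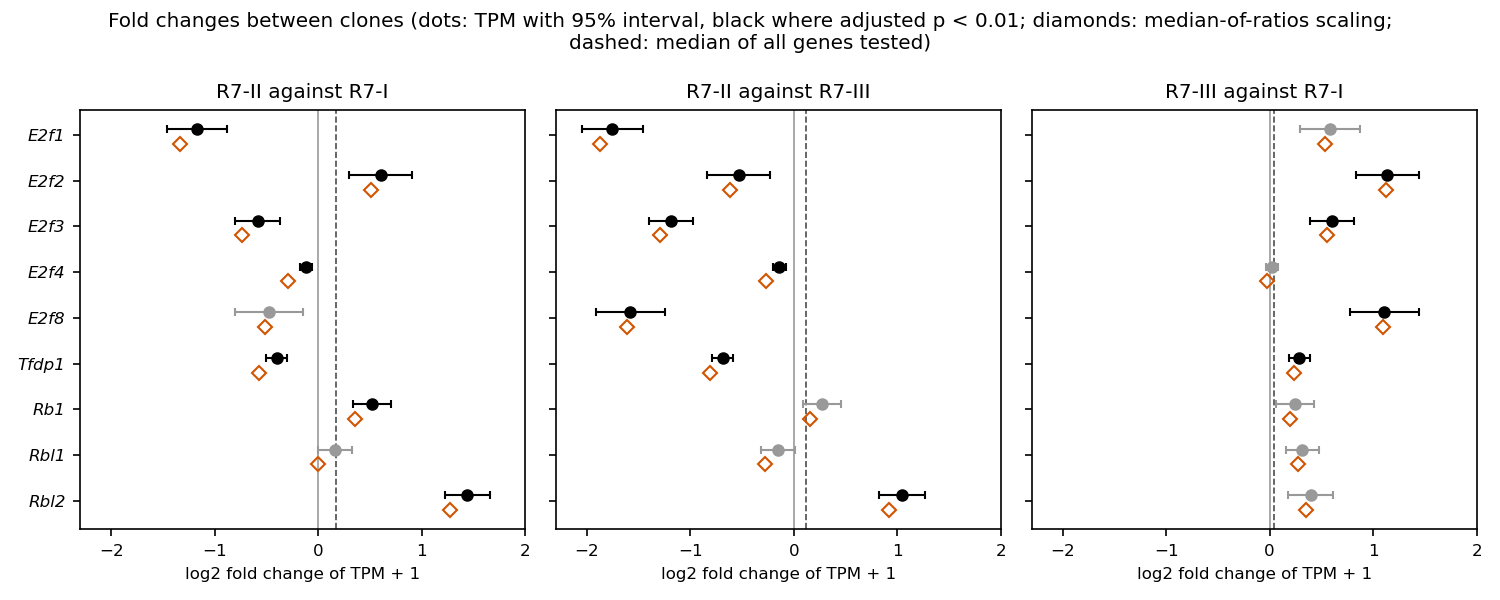
Log2 fold change of TPM + 1 (horizontal axis) of the 9 tested members in the 3 comparisons, with 95% intervals; black dots passed an adjusted p of 0.01 from limma and grey ones did not. Diamonds give the value with median-of-ratios scaling, and the dashed line is the median of all genes tested. E2f1 and Rbl2 lie farthest apart in both comparisons of R7-II.

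Rbl2, which encodes p130, the pocket protein of resting cells, was at 11.8, 11.8 and 15.9 TPM in R7-I, at 39.2, 37.7 and 34.4 in R7-II and at 17.7, 17.8 and 16.9 in R7-III. Every R7-II library was far above every other library. The mean was 13.2 ± 2.35 in R7-I, 37.1 ± 2.44 in R7-II and 17.5 ± 0.503 in R7-III. In R7-II its log2 fold change was 1.44 relative to R7-I (SE 0.10, adjusted p = 7.32e-07) and 1.04 against R7-III (adjusted p = 6.87e-06), and 1.27 and 0.92 with median-of-ratios scaling.

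Rb1, the founding pocket protein gene, was at 15.9, 15.4 and 19.6 TPM in R7-I, at 25.7, 23.5 and 24.6 in R7-II and at 19.2, 20.4 and 21.0 in R7-III. R7-II was above all other libraries, while R7-I and R7-III overlapped. The log2 fold change was 0.52 against R7-I (SE 0.08, adjusted p = 2.43e-04), and against R7-III it was 0.27 (95% interval 0.09 to 0.46, adjusted p = 0.0128), which did not pass. With median-of-ratios scaling they were 0.35 and 0.15. Without R7-I replicate 3, the difference from R7-III was again 0.27 and passed (adjusted p = 0.00177).

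Rbl1, which encodes p107 and is an E2F target that rises as cells enter the cycle, was at 24.1, 23.5 and 23.6 TPM in R7-I, at 23.2, 28.0 and 29.2 in R7-II and at 29.8, 29.4 and 30.1 in R7-III. R7-II replicate 1 lay with R7-I and the other R7-II libraries lay just under R7-III. No difference of R7-II passed: it was 0.16 against R7-I (95% interval 0.00 to 0.32, adjusted p = 0.0685), changing sign to -0.01 with median-of-ratios scaling, and -0.15 against R7-III (95% interval -0.32 to 0.01, adjusted p = 0.0822). Without R7-II replicate 1, the difference from R7-I was 0.26 and passed (adjusted p = 5.92e-04).

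The summed TPM of the 3 pocket protein genes was 53.8 ± 4.60 in R7-I, 88.5 ± 0.639 in R7-II and 67.4 ± 0.692 in R7-III, and their mix differed. Rbl2 made up 22.8% to 26.8% of the sum in R7-I, 39.0% to 44.5% in R7-II and 24.8% to 26.5% in R7-III. Rbl1 made up 40.0% to 46.5%, 26.3% to 33.1% and 43.5% to 44.8%. The share of Rb1 moved less, at 30.4% to 33.2%, 26.4% to 29.2% and 28.7% to 30.9%, where R7-III overlapped both other clones. Rbl2 was thus the most abundant pocket protein transcript in every R7-II library and the least abundant in every other library. The ratio of Rbl2 to Rbl1 was 1.69, 1.35 and 1.18 in R7-II, 0.490, 0.503 and 0.671 in R7-I and 0.592, 0.607 and 0.561 in R7-III. These shares are ratios within a library and do not move with its scaling.

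**Figure D3:**
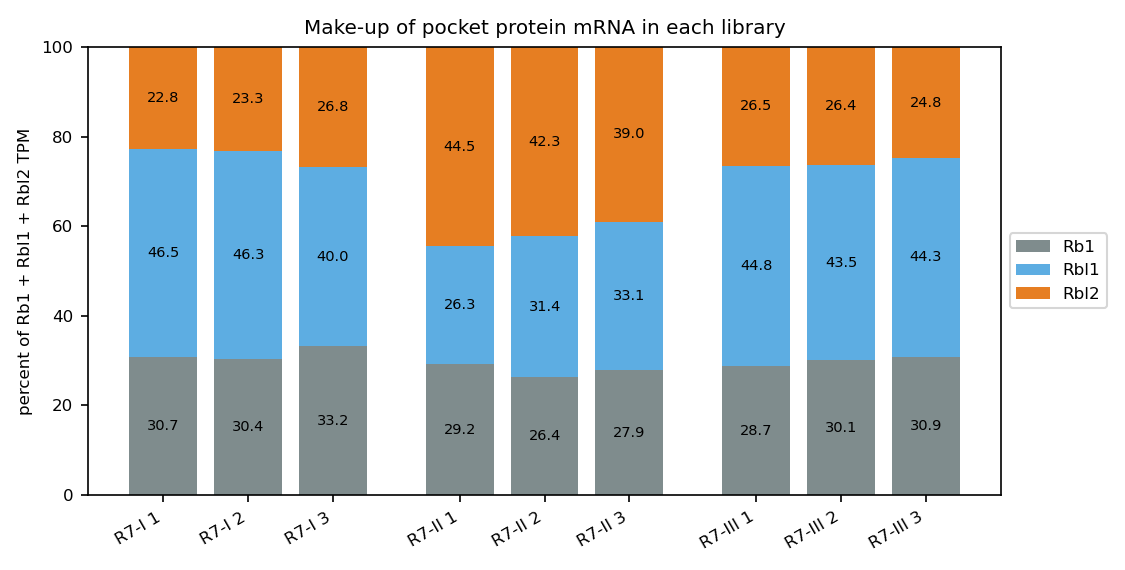
Share of Rb1 (grey), Rbl1 (blue) and Rbl2 (orange) in the summed TPM of the 3 pocket protein genes, in percent, for each of the 9 libraries. Rbl2 is the largest part in the 3 R7-II libraries, at 39.0% to 44.5%, and the smallest in the other 6, at 22.8% to 26.8%.

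Across both subfamilies, the ratio of E2f1 to Rbl2 was 0.22 to 0.37 in R7-II, 1.66 to 2.46 in R7-I and 2.20 to 2.71 in R7-III. R7-II thus held more Rbl2 than E2f1 transcript in each library, and the other clones the reverse. In exact two-sided permutation tests of R7-II against the other 6 libraries, E2f1, E2f3, E2f4, E2f8, Tfdp1, Rb1 and Rbl2 each gave p = 0.0238, the smallest this design allows. A gene reaches it whenever all R7-II libraries lie to one side of the other 6. The share of all genes that did so was not computed. It may be large, since limma called 40.6% of genes higher and 15.5% lower against R7-I, and 35.6% and 18.0% against R7-III. E2f2 gave 0.929, E2f7 0.143 and Rbl1 0.833 in the same exact tests, none adjusted for the 10 genes tested. These tests pool R7-I with R7-III. For E2f2 the R7-II libraries lay between those clones, so opposite differences offset each other and the p-value does not speak against either.

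The second question was whether the clones of higher affinity differed from each other. Between R7-III and R7-I, 4 of 9 members were called, all higher in R7-III, where 6.96% of all genes tested were called higher and 1.45% lower. These were E2f2, E2f3, E2f8 and Tfdp1. The median log2 fold change of the members was 0.40, and that of all genes tested was 0.04. Median-of-ratios scaling left 3 calls, all higher in R7-III, where 561 of the 11330 genes tested were called higher and 390 lower. With each library left out in turn, between 2 (without R7-III replicate 3) and 6 members were called.

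E2f2 changed by 1.14 (adjusted p = 4.61e-04) and E2f8 by 1.11 (adjusted p = 8.02e-04), or by 1.78 and 1.84 with a pseudocount of 0.1. E2f3 changed by 0.60 (adjusted p = 0.00205), a call that held in 15 of 19 alternatives. The settings that lost it included leaving out R7-I replicate 1, R7-III replicate 1 or R7-III replicate 3. Tfdp1 changed by 0.29 (adjusted p = 0.00203), and its call was lost with median-of-ratios scaling (0.24, adjusted p = 0.0143) and without R7-I replicate 2 or R7-III replicate 3.

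E2f1 did not pass this threshold although its libraries did not overlap. Its difference was 0.58 (95% interval 0.29 to 0.88, adjusted p = 0.0122), and the alternatives gave adjusted p-values for it from 5.51e-04 to 0.0503, passing without R7-II replicate 1 (5.61e-04) or 2 (0.00543). The 3 pocket protein genes were also on the side of higher values in R7-III without passing. Rbl2 differed by 0.40 (95% interval 0.18 to 0.62, adjusted p = 0.0192), Rbl1 by 0.32 (0.16 to 0.48, adjusted p = 0.0132) and Rb1 by 0.24 (0.06 to 0.43, adjusted p = 0.0643). Without R7-I replicate 3, the library with the highest Rbl2 and Rb1 of that clone, Rbl2 passed at 0.53 (adjusted p = 0.00117) and Rb1 at 0.35 (adjusted p = 0.00662). Without R7-II replicate 1 or 3, which bear only on the shared spread, Rbl1 passed. E2f4 differed by 0.02 (95% interval -0.04 to 0.08, adjusted p = 0.627), and by -0.03 with median-of-ratios scaling. Tfdp2 was higher in R7-III by 0.60 (adjusted p = 0.00344). E2f7, in the fit without a filter, was higher by 0.41 (adjusted p = 0.00270).

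By the order of means, R7-III was highest, R7-I intermediate and R7-II lowest for E2f1, E2f3, E2f8 and Tfdp1, and no library broke that order. The share of all genes tested with this order was not computed, so how common it was is not known. For Rbl2 and Rb1 the order was R7-II, R7-III, R7-I, with the last pair overlapping for Rb1. Set beside the stated order of affinity (R7-I, R7-III, R7-II), the means of Rbl2 and Rb1 ran in its reverse, although neither gene passed between R7-III and R7-I, and those of E2f1, E2f3, E2f8 and Tfdp1 ran neither with it nor in its reverse. The paper's measurement on cells found little difference in affinity between R7-I and R7-III, though R7-I had the higher adhesion frequency. How large the step between these clones is thus depends on the measure.

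The genes around these families in the pathway were then compared, in 4 lists. Of all genes tested, 40.6% were called higher and 15.5% lower in R7-II against R7-I, and 35.6% and 18.0% against R7-III. In R7-III against R7-I, 6.96% were called higher and 1.45% lower. Among 30 replication and G1/S genes known as E2F targets, 28 were called lower and none higher when R7-II was set against R7-I, 30 of 30 were lower when it was set against R7-III, and 28 were higher and none lower in R7-III relative to R7-I. Their median log2 fold changes were -0.64, -1.21 and 0.48. With median-of-ratios scaling the counts were 29, 30 and 20. Of the 11330 genes tested, 3230 were then lower in R7-II against R7-I and 3150 against R7-III. In R7-III against R7-I, 561 were then higher. Before this scaling, the exceptions against R7-I were Tk1 (-0.42, adjusted p = 0.0305) and Tyms (0.21, adjusted p = 0.0128).

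Pcna, the sliding clamp of DNA polymerases, was the most abundant of these targets, at 766 ± 24.8 TPM in R7-I, 601 ± 11.2 in R7-II and 904 ± 17.8 in R7-III. Its log2 fold change was -0.35 for R7-II over R7-I, -0.59 for R7-II over R7-III and 0.24 for R7-III over R7-I. Mcm3, a subunit of the replicative helicase, followed with 370.4 ± 14.4, 223 ± 23.8 and 487 ± 7.73 TPM. Between R7-II and R7-III the largest changes of the list were those of Mcm10, which helps start replication forks, and Rrm2, a subunit of ribonucleotide reductase. Mcm10 was at 20.8 ± 3.76 TPM in R7-I, 4.52 ± 1.76 in R7-II and 46.1 ± 2.88 in R7-III, with log2 fold changes of -2.03, -3.15 and 1.12. Rrm2 was at 19.4 ± 1.67, 4.74 ± 0.769 and 49.1 ± 4.61 TPM, with log2 fold changes of -1.84, -3.13 and 1.29. All of these differences passed in each comparison, and that of Mcm3 between R7-III and R7-I (0.40) no longer did with median-of-ratios scaling (adjusted p = 0.0131).

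**Figure D4:**
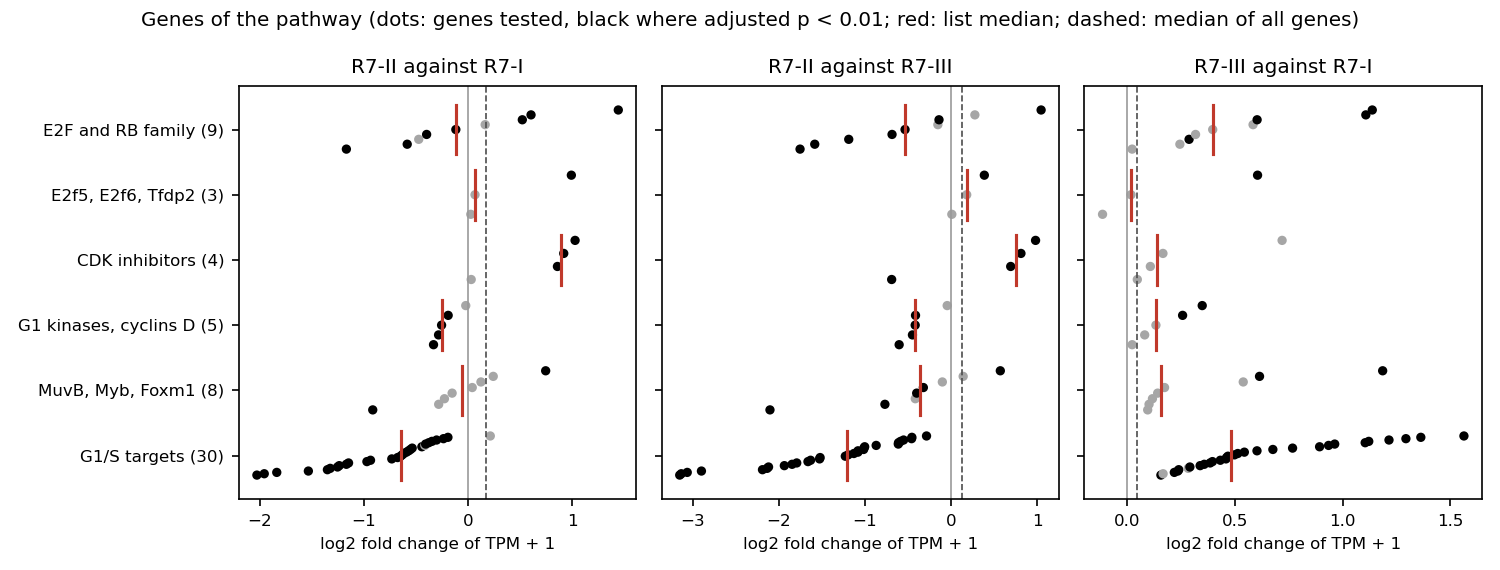
Log2 fold change of TPM + 1 (horizontal axis) of the tested genes of the families and of 5 related lists in the 3 comparisons. The range of the horizontal axis differs between panels. Each dot is a gene, black where the adjusted p from limma was below 0.01, the red bar is the list's median and the dashed line the median of all genes tested. All 30 G1/S targets lie below 0 for R7-II against R7-III, and their median is -1.21.

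The MuvB core forms DREAM with p130, and later the activating complexes of G2 with its Myb and Fox partners. Of 8 genes of this core and these partners, 1 was higher and 1 lower in R7-II relative to R7-I. In R7-II relative to R7-III, 1 was higher and 4 lower, and 2 were higher in R7-III relative to R7-I. Of all genes, 40.6% were called higher and 15.5% lower in the first of these comparisons, and 35.6% and 18.0% in the second. In the third, 6.96% were called higher. With median-of-ratios scaling 5 and 6 of the list were lower in R7-II, where 3230 and 3150 of the 11330 genes tested were. The counts of this list thus depended on the scaling, as did those of all genes. Mybl2, the Myb protein that replaces p130 on MuvB, was at 6.94 ± 1.34 TPM in R7-I, 3.19 ± 0.593 in R7-II and 16.9 ± 1.62 in R7-III, and passed in all 3 comparisons (-0.92, -2.10 and 1.19). Lin37, a MuvB subunit, was the one higher in R7-II, by 0.74 against R7-I (adjusted p = 1.90e-06) and 0.57 against R7-III (adjusted p = 1.26e-05). Foxm1, the G2/M activator, fell by 0.77 in R7-II against R7-III (adjusted p = 3.81e-05), and its value against R7-I was -0.15 (adjusted p = 0.161). Rbbp4, a histone-binding subunit and the most abundant of the list, passed in no comparison of the TPM as deposited (0.04 and -0.10 in R7-II against R7-I and R7-III), but was called lower in R7-II in both with median-of-ratios scaling, at -0.14 (adjusted p = 0.00503) and -0.23 (adjusted p = 2.10e-04).

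Of the kinases and D cyclins that phosphorylate pocket proteins in G1, 4 of 5 tested genes were lower in R7-II than in either other clone, and Ccnd1 was too low to test. Of all genes tested, 15.5% were called lower in R7-II against R7-I and 18.0% against R7-III. Cdk4 was at a mean of 612 TPM in R7-I, 502 in R7-II and 671 in R7-III, with log2 fold changes in R7-II of -0.28 (adjusted p = 2.63e-05) and -0.42 (adjusted p = 1.84e-06). Ccnd2, a D cyclin induced in stimulated lymphocytes, had log2 fold changes of -0.33 and -0.41, Ccnd3 of -0.19 and -0.45, and Cdk2, the partner of cyclin E, of -0.26 and -0.60, all past the threshold. Cdk6 did not pass, at -0.02 and -0.05, but did with median-of-ratios scaling (-0.20 and -0.17). Between R7-III and R7-I, Cdk2 (0.35) and Ccnd3 (0.26) passed, the latter not with median-of-ratios scaling (adjusted p = 0.0335).

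Of 7 genes for inhibitors of these kinases, 4 were tested. Relative to each other clone, 3 were higher in R7-II, where 40.6% (against R7-I) and 35.6% (against R7-III) of all genes tested were. With so few genes, the count alone says little. Cdkn1a, which encodes p21, was at 63.0 ± 13.6 TPM in R7-I, 128 ± 20.4 in R7-II and 64.1 ± 1.74 in R7-III, and its log2 fold change was 1.03 and 0.98 (adjusted p = 7.69e-05 and 1.14e-04). Cdkn1b, which encodes p27, was at 19.8 ± 0.418, 38.5 ± 5.91 and 21.4 ± 0.921 TPM, and its log2 fold change was 0.92 and 0.81 (adjusted p = 9.61e-06 and 2.47e-05). Cdkn2d changed by 0.86 and 0.69. Cdkn2c differed, at 0.03 against R7-I and -0.69 against R7-III (adjusted p = 0.00588). None of the 4 passed between R7-III and R7-I.

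Finally, the genes whose pattern over the 9 libraries was most like that of E2f1 and of Rbl2 were listed, by Pearson r of log2(TPM + 1) over the 11330 genes tested. The libraries fall into 3 clones, so these values describe the likeness of 3 clone levels and carry no test. For E2f1 they were Mcm5, a helicase subunit, Chaf1a, a histone chaperone, and Cdk1, the mitotic kinase, each with r = 0.997. Among the members, Tfdp1 came 61st (r = 0.986) and E2f3 came 224th (r = 0.967). The other members were less alike: E2f4 came 895th (r = 0.896), E2f8 967th (0.887), Rbl1 3190th (0.359) and E2f2 3393rd (0.275). Rb1 (r = -0.635) and Rbl2 (r = -0.803) ran the other way. For Rbl2 they were Bbc3, which encodes the cell death protein PUMA (r = 0.995), the kinase gene Pskh1 (r = 0.995) and Plekhg2 (r = 0.994). Bbc3 was at a mean of 12.5 TPM in R7-I, 44.5 in R7-II and 16.8 in R7-III. Rb1, the other pocket protein gene with its highest level in R7-II, came 1356th (r = 0.939), and Rbl1 came 7087th (r = 0.197).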

How the data were processed

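The authors sequenced polyA RNA of sorted, peptide-activated CD8 T cells, 3 libraries per clone, used RSEM 1.2.11 both to align reads to RefSeq genes of mm10 and to estimate levels, and deposited a TPM value for each gene, as the labels and the study's methods state. TPM is scaled to 1 total per library and keeps no read depth; the study's methods give only a typical read number for its samples, so no counting error or detection limit is given, and a value near 0 is uncertain. The authors tested counts with DESeq2 1.8.1; those counts were not used here, nor were unstimulated samples.

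The deposited TPM values were turned into log2(TPM + 1) for 11330 genes, those exceeding a TPM of 1 somewhere. All 9 libraries entered 1 fit with limma 3.58.1 in R 4.3.3 (lmFit, contrasts.fit, eBayes with trend), Benjamini-Hochberg adjustment across these genes and a threshold of 0.01. Fold changes on this scale understate changes of genes with a low TPM. The fit was checked on simulated data. scipy 1.17.1 in Python 3.11.15 gave the exact permutation tests. Samples were grouped by the clone in the labels.

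The members and the lists of genes were chosen with earlier results of these data known. Genes named are all members, the other genes of the families, the 2 genes of highest mean TPM and the 2 of largest change between R7-II and R7-III in each list, and the 3 genes most like E2f1 and Rbl2; Tk1, Tyms, Cdk6, Cdkn2c and Cdkn2d were named after their values were seen. Gene positions and promoter windows are from RefSeq on GRCm38.p6, the build of mm10; overlaps of exons are from the GENCODE annotation. Of 13 genes of the families, 10 had a promoter window in the table used. The alternatives were a pseudocount of 0.1 or 5, no filter or a filter asking every library for a TPM of 1, median-of-ratios or quantile scaling, no trend, a replicate block, fits restricted to the pair of clones at hand, a threshold of 0.05 and leaving out each library in turn.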

Additional observations from a re-analysis of the deposited data

How the results depend on the processing

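Of the members, 7 were called between R7-II and R7-I and 7 between R7-II and R7-III, which became 6 to 7 and 6 to 8 on omitting any 1 library. Between R7-III and R7-I, 4 members and 953 genes were called, 7 and 2142 at an adjusted p of 0.05, and 2 to 6 members and 436 to 1120 genes with 1 library left out (fewest members without R7-III replicate 3, fewest genes without R7-I replicate 1). Genes called numbered 6358 and 6077 in the comparisons of R7-II, and 5429 to 6369 and 5113 to 6121 with 1 library left out. The difference of Rbl1 between R7-II and R7-I turned to -0.00705 with median-of-ratios scaling and -0.0744 with quantile normalization, and that of E2f4 between R7-III and R7-I to -0.0269 with median-of-ratios scaling; the cause was not tested. With quantile normalization, E2f2, E2f4 and Rb1 were no longer called between R7-II and R7-I (adjusted p = 0.0732, 0.0393 and 0.0118). E2f2 and E2f8 gave no value where a TPM of at least 1 was asked of every library. Deviations of same-numbered libraries from their clone means correlated across genes at -0.04 to 0.09, so no broad shift shared by replicate number was seen. This does not settle whether same-numbered libraries were prepared together, which the labels do not say. A replicate block left 7, 7 and 4 members called, and 6015, 5786 and 733 genes. Without the trend, E2f4 between R7-II and R7-I (0.0157) and Tfdp1 between R7-III and R7-I (0.0106) were not called. Fits of only the clones compared called E2f1 (5.51e-04) and Rbl1 (7.29e-04) between R7-III and R7-I and Rb1 between R7-II and R7-III (0.00352), but not E2f2 there (0.0115). The number of reads behind a value of E2f2, E2f7 or E2f8, which had a TPM under 4 in every library, cannot be read from TPM.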
